A study of Homo sapiens with 16 samples.

Results

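Extracellular matrix genes were followed in lung cancer cells grown in 3D and in 2D. The list held 38 genes for interstitial collagens, matrix glycoproteins, microfibril proteins, proteoglycans and crosslinking enzymes. A member was measured by the probe sets annotated to it and to no other gene. This gave 37 members with 122 probe sets, out of 19775 genes and 54675 probe sets on the array, and COL17A1 had no such probe set and was not analysed here. The study grew 8 human lung cancer lines in 3D and in 2D, named H1703, H1437, H661, H460, H358, H23, A549 and A427. In 3D, cells sat on a thin bed of Matrigel under medium with dissolved Matrigel. In 2D, the same untreated lines grew on culture plastic at similar density and in like media. Matrigel is a basement membrane extract of a mouse tumour, rich in laminin and type IV collagen. Each line and culture had 1 Affymetrix Human Genome U133 Plus 2.0 array, so there were 8 arrays a culture and no replicate cultures of a line.

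The interstitial matrix is the scaffold that lies between cells. Fibrillar collagens form its cables, fibronectin and other glycoproteins link cells to them, microfibrils and latent TGF-beta binding proteins store growth factors, small proteoglycans space the fibrils, and lysyl oxidases crosslink them. In tissue, fibroblasts make most of it, and carcinoma cells can make some of it themselves.

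Every deposited value is a log2 ratio of an array to the probe set's own reference, so a level of 0 is the reference and says nothing of how 1 gene compares with another. The linear median over the 16 arrays equalled the reference for 63.5% of probe sets. It lay under the reference for the other 36.5%, called dim here. Of the members' probe sets, 70 were not dim and 52 were dim. A gene's level is the mean of its probe sets that are not dim, or of all of them where all are dim. All probe sets were dim for 7 members (COL11A1, COL6A3, SPARC, THBS2, POSTN, MGP and BGN), so 30 members entered the 3D against 2D test. The files used here carry no detection calls, so a fold against a low level may stop at the array's background. The lowest ratio in the table was 0.01, or -6.64 on the log2 scale.

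Promoter sequences of 26 measured members were in the RefSeq table used (GRCh38.p14). The 250 bases before the start are shown for 4 members that stood high in different lines: COL11A1 and POSTN, highest in H661, and SPP1 and TGFBI, highest in H460. COL11A1 lies at chr1:103108523-103108772 on the minus strand. POSTN lies at chr13:37598769-37599018 on the minus strand. SPP1 lies at chr4:87975464-87975713 on the plus strand. TGFBI lies at chr5:136028738-136028987 on the plus strand. Capitals mark matches, on either strand, to the letters of 4 motifs. The TATA box was searched as TATAAA. The letters searched for AP-1 were TGANTCA. Those of the GC box were GGGCGG. The remaining motif, which binds the factor NF-Y, is named by its letters, CCAAT. Overlapping matches were allowed.
COL11A1: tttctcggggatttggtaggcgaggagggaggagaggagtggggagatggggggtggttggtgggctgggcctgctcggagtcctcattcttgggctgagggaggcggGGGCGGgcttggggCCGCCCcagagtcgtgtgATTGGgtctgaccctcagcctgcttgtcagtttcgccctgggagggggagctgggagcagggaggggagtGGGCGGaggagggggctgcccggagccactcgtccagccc
POSTN: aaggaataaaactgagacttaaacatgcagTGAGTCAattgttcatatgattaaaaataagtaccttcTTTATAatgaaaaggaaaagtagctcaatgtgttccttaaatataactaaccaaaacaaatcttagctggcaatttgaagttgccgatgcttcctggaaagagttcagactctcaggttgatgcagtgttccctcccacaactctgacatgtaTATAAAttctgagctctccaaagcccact
SPP1: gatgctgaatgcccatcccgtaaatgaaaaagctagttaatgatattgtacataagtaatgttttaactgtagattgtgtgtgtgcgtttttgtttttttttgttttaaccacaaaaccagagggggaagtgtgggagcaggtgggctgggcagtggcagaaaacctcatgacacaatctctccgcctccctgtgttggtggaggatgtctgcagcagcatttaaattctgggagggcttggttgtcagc
TGFBI: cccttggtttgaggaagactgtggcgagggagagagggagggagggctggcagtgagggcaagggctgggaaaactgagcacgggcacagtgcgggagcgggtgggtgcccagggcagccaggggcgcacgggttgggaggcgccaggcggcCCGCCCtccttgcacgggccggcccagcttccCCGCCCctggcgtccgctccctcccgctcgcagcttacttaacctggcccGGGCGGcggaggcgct
COL11A1 held 3 GC box matches and 1 CCAAT box match. POSTN held an AP-1 match that began 220 bases before the start and TATA box matches that began 182 and 29 bases before it. TGFBI held 3 GC box matches. None of the 4 motifs was in the SPP1 window, which says only that these letters are not there. Of all 35116 promoters in the table, 42.6% held a GC box, 32.0% a CCAAT box, 10.7% a TATA box and 6.57% the AP-1 letters.

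The lines differed far more than the cultures did. Of the 37 members, 35 differed among lines (limma moderated F test with culture as a covariate, Benjamini-Hochberg adjusted p under 0.05 over 19775 genes), against 67.8% of all genes. BGN (adjusted p = 0.113) and DCN (adjusted p = 0.21) did not pass. The highest and lowest line means lay at least 8-fold apart for 24 of 37 members (64.9%), against 17.2% of all genes. The median range of line means was 4.48 on the log2 scale over members and 1.28 over all genes. This test sets a line's 2 arrays, 1 in 3D and 1 in 2D, against the spread left after line and culture, with 7 residual degrees of freedom.

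Each line was then set against the mean of the other 7 lines. In H661, 19 of 37 members were higher (17.5% of all genes) and 9 lower (19%). In A549, 20 were higher (12.8%) and 8 lower (16.6%). In H358, 15 were higher (16.9%) and 11 lower (27.6%), and in H460, 12 were higher (13.2%) and 17 lower (18.7%). In H23, 7 were higher (16.7%) and 10 lower (14.5%). In the other 3 lines few were higher. These were 5 in H1437 (18.4%), 4 in H1703 (23.2%) and 3 in A427 (18.1%), with 16 lower in H1437 (18.9%), 21 in H1703 (12.1%) and 18 in A427 (15.5%). A member that is very high in 1 line raises the mean the other lines are set against, so COL1A2 and COL11A1 were called lower in every line but H661, although those 7 lines sat close together. Of the 37 members, 9 were called higher in 1 line, 11 in 2, 14 in 3 and 3 (EFEMP1, LOXL2 and TGFBI) in 4.

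**Figure D1:**
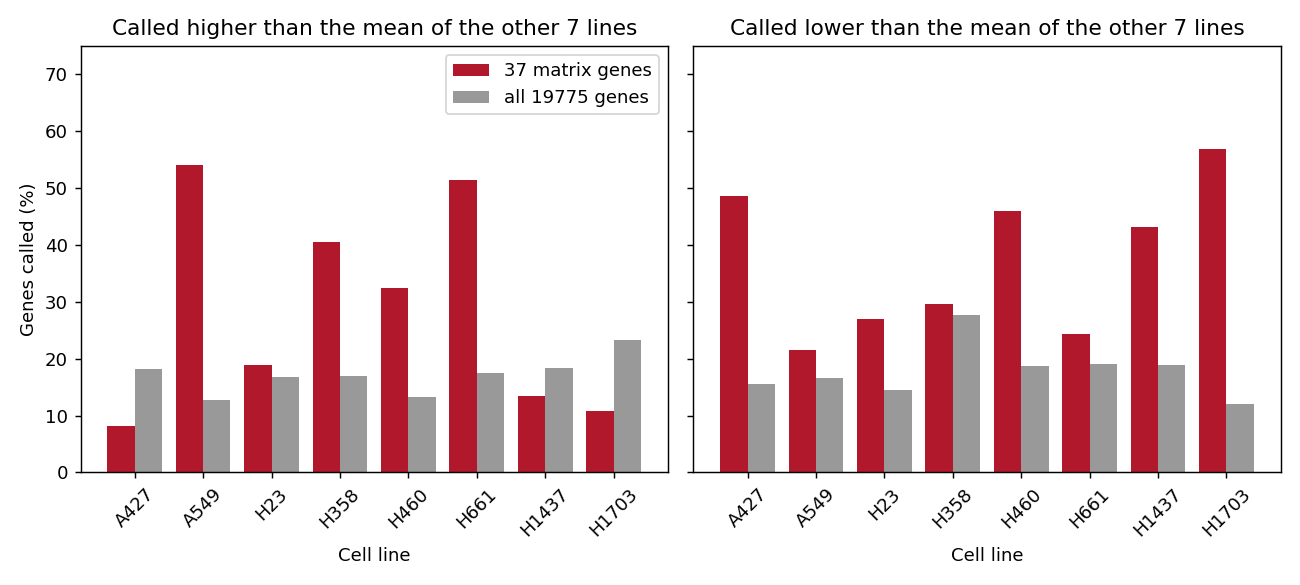
Share of the 37 members (red) and of all 19775 genes (grey) called higher (left) or lower (right) in each line than the mean of the other 7 lines, in percent, by limma at an adjusted p under 0.05. The red bars stand well above the grey ones on the left for A549, H358, H460 and H661, and on the right for A427, H460, H1437 and H1703.

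By line mean, fibrillar collagens were highest in H661, in which 6 of 6 were called higher than in the other lines (17.5% of all genes). COL11A1, a minor fibrillar chain best known from cartilage, stood at 10.93 in 3D and 10.56 in 2D in H661. In the other 7 lines its 3D levels ran from -0.93 to -0.67 (median -0.81) and its 2D levels from -0.97 to -0.82 (median -0.90). The 7 lines did not overlap with H661, and the difference was 11.59 ± 0.11 (log2, SE, limma adjusted p = 1.65e-11), or 3080-fold, from 3 dim probe sets that each stood high in H661. COL1A2, a chain of type I collagen, stood at 11.26 in 3D and 10.39 in 2D in H661. In the other lines it stood at -0.08 to 0.09 in 3D (median -0.02) and at -0.59 to 0.13 in 2D (median -0.03). The difference was 10.88 ± 0.22 (adjusted p = 1.22e-09), or 1880-fold, and no other line came near H661.

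COL3A1, the type III collagen chain, stood at 10.56 in 3D and 10.55 in 2D in H661. In the other lines it ran from -1.80 to 5.37 in 3D (median -1.0) and from -1.69 to 5.43 in 2D (median -1.33). H661 lay 9.98 ± 0.37 above their mean (adjusted p = 8.18e-08), or 1010-fold. A427 came next, with 5.37 in 3D and 5.43 in 2D, and was itself called higher by 4.08 ± 0.37 (adjusted p = 3.8e-05). H460 was called higher by 1.30, with 2.53 in 3D and 3.40 in 2D. COL5A2, a chain of the type V collagen that sets fibril width, was shared by 3 lines. It stood at 4.33 in 3D and 4.80 in 2D in H661, at 4.18 and 4.22 in H460, and at 2.22 and 2.37 in H1703. H661 was higher by 5.49 ± 0.48, H460 by 5.06 ± 0.48 and H1703 by 2.89 ± 0.48. H661 and H460 differed by less than that SE. The lowest levels were -5.90 in 3D and -5.86 in 2D in H358 and -4.81 and -6.05 in H1437. COL1A1, the other type I chain, was higher in H661 by 2.72 ± 0.24 (adjusted p = 2.38e-05), and COL5A1 by 2.52 ± 0.34 (adjusted p = 2.95e-04). Both were also called higher in A549, COL1A1 by 0.76 and COL5A1 by 1.13. In 3D COL5A1 stood at 2.00 in H661 and 2.01 in A549, so its lead in H661 rests on 2D (3.24 and 0.80). The 5 COL1A1 probe sets parted: the range of line means was 9.32 for the widest and 0.60 for the narrowest, so their mean understates the widest. Other members parted in this way too, among them LUM (8.14 and 1.66), COL6A1 (5.44 and 0.19) and COL13A1 (4.71 and 0.55).

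Collagen VI, which forms beaded filaments around cells, had all 3 chains called higher in H661 (17.5% of all genes). The differences were 1.69 for COL6A2, 1.05 for COL6A1 and 0.69 for COL6A3. The COL6A3 level comes from 1 dim probe set and lay near its reference in H661, at -0.23 in 3D and 0.33 in 2D. COL6A2 was highest in H1703, at 1.75 in 3D and 2.38 in 2D, and in the other 7 lines ran from -1.56 to 1.71 in 3D and from -1.99 to 1.66 in 2D. The difference in H1703 was 2.12 ± 0.27 (adjusted p = 3.09e-04). A427, at 1.08 in 3D and 1.25 in 2D, was higher by 1.10 ± 0.27 (adjusted p = 0.0111). COL6A1 was also higher in H460 (0.89) and COL6A3 in A549 (1.47).

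Of the 5 other collagens, COL8A1, a short-chain network collagen, had the widest spread. In H460 it stood at 7.91 in 3D and 8.13 in 2D. In the other 7 lines it ran from -2.36 to 6.91 in 3D (median -1.0) and from -2.52 to 5.20 in 2D (median -2.30). H460 was higher by 7.66 ± 0.40 (adjusted p = 1.09e-06), H358 by 5.42 ± 0.40 (adjusted p = 7.69e-06) and H661 by 3.05. H358 held 6.91 in 3D and 5.20 in 2D, and H661 5.04 and 2.94. COL7A1, the anchoring fibril collagen, was higher in H358 by 1.92 and in A549 by 1.69. COL13A1, a transmembrane collagen, was higher in the same pair of lines, by 1.52 in H358 and 1.20 in A549. COL12A1, which coats fibrils, was called higher in H23 (1.37), a call that rests on its 2D array: 0.18 in 3D, below H358 (0.89) and H661 (0.25), and 1.86 in 2D. COL16A1, a member of the same subfamily, was higher in A549 (0.75).

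Among the 9 glycoproteins, 6 were higher in A549 (12.8% of all genes), 5 in H358 (16.9%), 4 in H661 (17.5%) and 3 in each of H460 (13.2%) and H1437 (18.4%). SPP1, or osteopontin, a secreted integrin ligand, stood at 8.41 in 3D and 8.38 in 2D in H460 and at 8.14 and 7.63 in A549. In the remaining 6 lines it ran from -3.17 to 2.72 in 3D and from -3.24 to 4.82 in 2D. H460 was higher by 8.01 ± 0.88 (adjusted p = 1.2e-04) and A549 by 7.43 ± 0.88 (adjusted p = 2.43e-04). FN1, or fibronectin, was highest in H460, at 5.96 in 3D and 5.09 in 2D. In the other lines it ran from -4.15 to 4.51 in 3D (median -1.94) and from -4.04 to 2.61 in 2D (median -2.12). H460 was higher by 6.20 ± 0.49 (adjusted p = 1.44e-05), A549 by 3.66 ± 0.49 and H358 by 2.25, whereas H661 was lower (-4.79). By line mean, H661 thus paired the highest fibrillar collagen levels with the lowest fibronectin level.

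TGFBI, a TGF-beta-induced integrin ligand, was above its reference in 4 lines and far below it in the other 4. It stood at 2.65 in 3D and 2.42 in 2D in H460, at 2.42 and 2.13 in A549, at 1.78 and 2.73 in H358, and at 0.95 and 0.96 in H1437. In A427 and H1703 it read -6.64 in both cultures, the lowest ratio in the table. H661 read -6.29 in 3D and -4.01 in 2D, and H23 -6.53 and -4.97. The called differences were 5.21 ± 0.44 for H460, 4.91 ± 0.44 for A549, 4.89 ± 0.44 for H358 and 3.40 ± 0.44 for H1437, and the floor in 2 lines makes them lower limits.

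TNC, or tenascin-C, which loosens cell adhesion, stood at 5.90 in 3D and 6.17 in 2D in H358. In the other lines it ran from -2.79 to 3.81 in 3D (median -1.87) and from -2.91 to 4.02 in 2D (median -2.38). H358 was higher by 6.31 ± 0.33 (adjusted p = 8.15e-07), H23 by 3.63 ± 0.33 (adjusted p = 5.35e-05) and A549 by 3.12. H23 held 3.36 in 3D and 4.02 in 2D. SPARC, a collagen-binding matricellular protein, was high in A549, at 6.08 in 3D and 5.69 in 2D, and in H661, at 5.58 and 5.76. A549 was higher by 4.99 ± 0.20 (adjusted p = 3.72e-07) and H661 by 4.74 ± 0.20 (adjusted p = 1.76e-07). H358 followed with 2.36 in 3D and 2.69 in 2D, and the remaining 5 lines lay between -0.50 and -0.20. POSTN, or periostin, stood at 4.13 in 3D and 4.33 in 2D in H661 and at 2.10 and 2.70 in A549, and at 0.51 or less in the other arrays. It was higher in H661 by 4.34 and in A549 by 2.25. These POSTN levels average 4 dim probe sets that parted, with line means in H661 from -0.22 to 9.38. The probe set highest in H661 read 2.65 in 3D and 1.44 in 2D in H23.

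THBS1, or thrombospondin 1, which activates latent TGF-beta, was higher in H661 by 4.29, in H1437 by 3.11 ± 0.55 (adjusted p = 1.61e-03) and in H358 by 2.89. It stood at 1.84 in 3D and 1.54 in 2D in H1437. In A427, H460 and H1703 every array read -4.21 or less. THBS2 was higher in H661 by 0.76, though its H661 level was still -0.09 in 3D and -0.21 in 2D. MGP, an inhibitor of calcification, was highest in H1437, at 1.73 in 3D and 1.67 in 2D. In the other 7 lines it ran from -0.78 to 0.26 in 3D (median -0.69) and from -0.85 to -0.41 in 2D (median -0.79). The groups did not overlap, and the difference was 2.34 ± 0.12 (adjusted p = 5.7e-07). The 2 dim MGP probe sets parted, with line means in H1437 of 4.05 and -0.65.

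**Figure D2:**
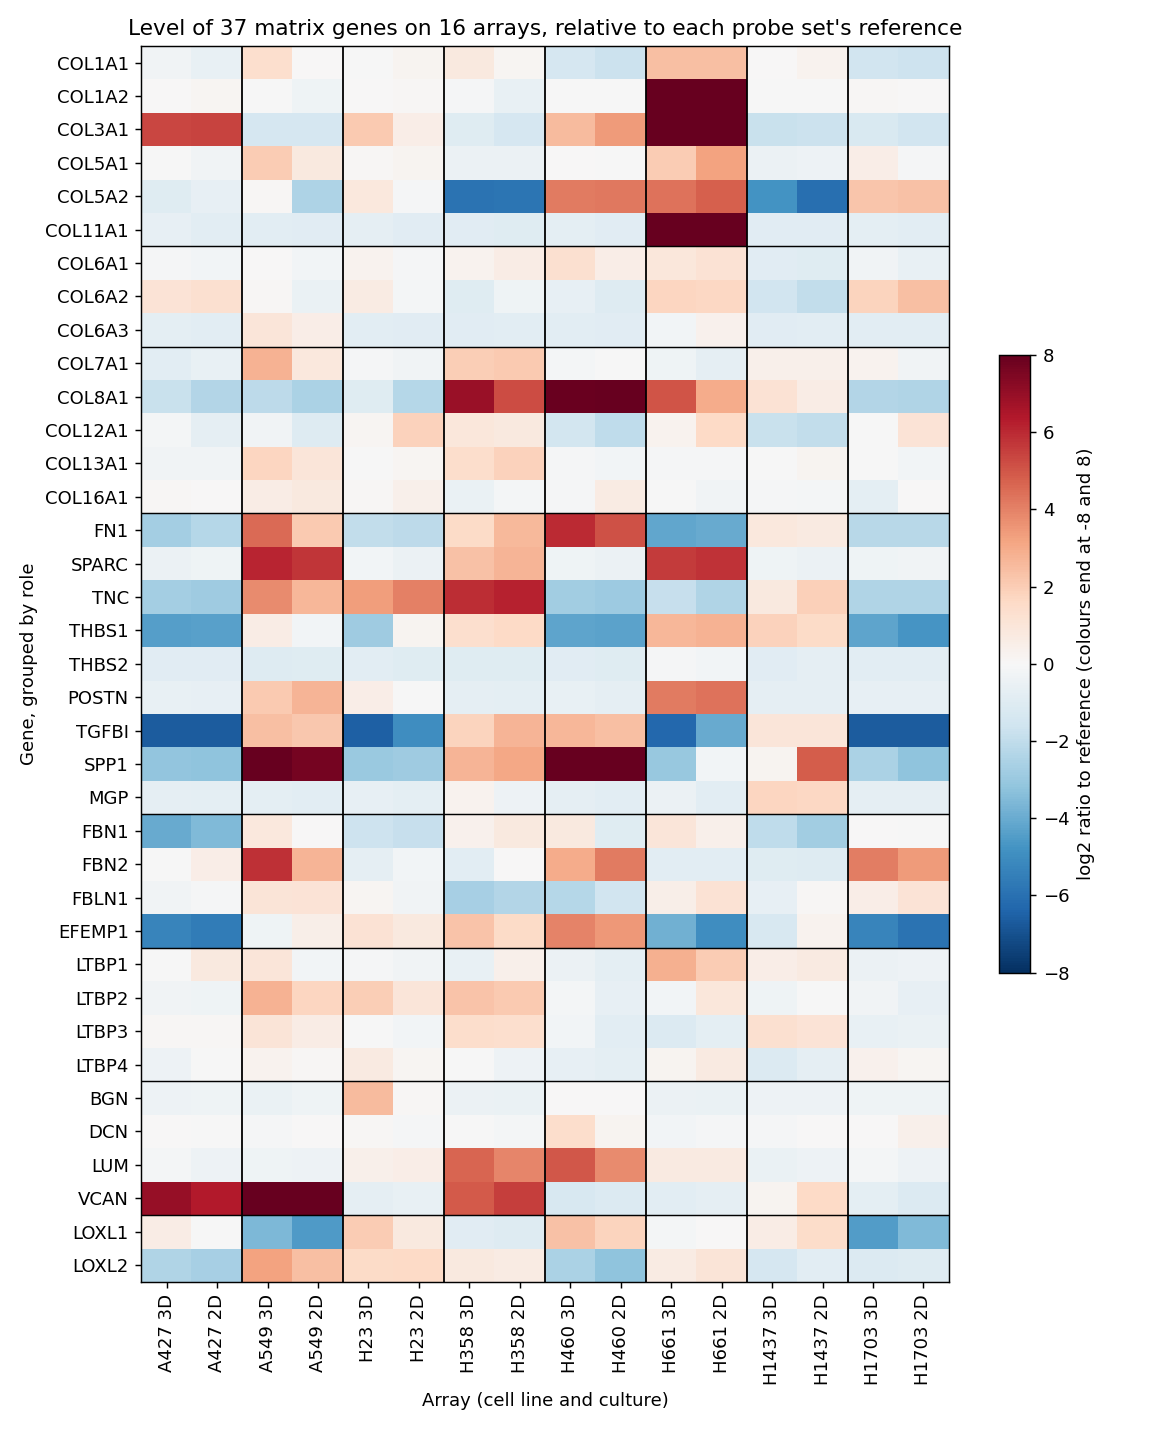
Level of 37 matrix genes (rows, grouped by role) on 16 arrays (columns, 3D left of 2D in each line) as a log2 ratio to each probe set's reference; red is above it and blue below it. The 2 columns of a line mostly share their colour: the fibrillar collagens COL1A2, COL3A1 and COL11A1 are dark red in H661, SPP1 in A549 and H460, and TGFBI is dark blue in A427 and H1703.

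The 4 microfibril and fibulin genes were all called higher in A549 than the mean of the other lines (12.8% of all genes). FBN2, or fibrillin-2, was higher in A549 by 3.58, in H1703 by 3.01 ± 0.65 (adjusted p = 6.01e-03) and in H460 by 2.76. In H1703 it stood at 4.12 in 3D and 3.43 in 2D. FBN1, or fibrillin-1, was higher in H661 (1.69), H358 (1.55) and A549 (1.41). EFEMP1, or fibulin-3, was highest in H460, at 3.99 in 3D and 3.46 in 2D. In the other lines it ran from -5.30 to 2.25 in 3D (median -1.30) and from -5.92 to 1.53 in 2D (median 0.30). H460 was higher by 5.59 ± 0.41 (adjusted p = 1.01e-05), H358 by 3.49, H23 by 2.43 ± 0.41 (adjusted p = 1.77e-03) and A549 by 1.41. H23 held 1.13 in 3D and 0.80 in 2D. A549 stood near the reference, at -0.32 in 3D and 0.45 in 2D. The mean it was set against is lowered by A427 (-5.45), H661 (-4.42) and H1703 (-5.60). FBLN1, or fibulin-1, was higher in A549 (1.55), H661 (1.27) and H1703 (1.26 ± 0.20, adjusted p = 1.13e-03). In H1703 it stood at 0.53 in 3D and 1.11 in 2D.

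Latent TGF-beta binding proteins hold stored TGF-beta in the matrix. LTBP1 was higher in H661 by 2.41. LTBP2, which does not bind latent TGF-beta, was higher in A549 (1.87) and H358 (1.80). LTBP3 was higher in H358 (1.39), H1437 (1.16) and A549 (0.74), and LTBP4 in H661 (0.65) and H23 (0.58). In H460 all 4 were called lower (18.7% of all genes), from -0.71 for LTBP4 to -1.17 for LTBP2.

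Of the 4 proteoglycans, VCAN, or versican, a large hyaluronan-binding one, stood at 8.90 in 3D and 8.28 in 2D in A549 and at 6.95 and 6.33 in A427. A549 was higher by 7.29 ± 0.38 (adjusted p = 1.85e-06), A427 by 5.06 ± 0.38 (adjusted p = 1.28e-05) and H358 by 3.41. H358 held 4.89 in 3D and 5.51 in 2D. LUM, or lumican, a spacer of collagen fibrils, was higher in H460 (3.80) and H358 (3.68 ± 0.25, adjusted p = 4.74e-06). It read 4.97 in 3D and 3.78 in 2D in H460 and 4.66 and 3.88 in H358, against 0.72 or less elsewhere. BGN, or biglycan, was called higher in H23 (1.68), a call that rests on its 3D array: 2.54 in 3D and 0.10 in 2D. DCN, or decorin, was called higher in H460 (0.82), with 1.43 in 3D and 0.20 in 2D. Neither gene passed the F test over lines.

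Both crosslinkers are lysyl oxidase-like enzymes. LOXL2 was higher in A549 (3.46), H23 (2.03 ± 0.22), H661 (1.19) and H358 (1.06). LOXL1 was higher in H460 (2.96), H23 (2.21 ± 0.38) and H1437 (1.82 ± 0.38). LOXL2 read 1.56 in 3D and 1.59 in 2D in H23. LOXL1 read 2.02 in 3D and 0.76 in 2D in H23, and 0.62 and 1.49 in H1437. H23 was the line with both enzymes called higher. A549 had the highest LOXL2 mean and the lowest LOXL1 mean, with LOXL1 at -3.62 in 3D and -4.56 in 2D.

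Markers of cell identity also differed among these lines, and their part in the matrix results was not tested. All 9 epithelial markers were higher in H358 (16.9% of all genes) and in H1437 (18.4%) than in the other lines. In H661, 7 of 9 were lower (19%) and EPCAM was higher, and in H1703 9 of 9 were lower (12.1%). In H661, 5 of 14 fibroblast markers were higher (17.5% of all genes) and 3 lower (19%), and the levels of the 14 ran from -6.64 to 3.89. Those higher were THY1, FAP, PDGFRA, RGS5 and CSPG4, and the lowest level was that of S100A4 (-6.64). THY1 and PDGFRA stood higher in H1703 (5.56 and 7.88) than in H661 (3.62 and 3.78). FAP stood higher in A427 (4.84) than in H661 (1.80). RGS5 (3.89) and CSPG4 (-0.40) had their highest line mean in H661. CSPG4 was below its reference there and did not pass the F test over lines (adjusted p = 0.276). In H1703, 5 of 14 were higher (23.2%) and 3 lower (12.1%), and in A549 4 were higher (12.8%) and 5 lower (16.6%). No endothelial and no leukocyte marker was called higher in H661 (17.5% of all genes). Of the 7 mesenchymal-state genes, 6 were higher in A549 (12.8%), 4 in each of H23 (16.7%) and H661 (17.5%) and none in H1437 (18.4%). In each of H23 (14.5%) and H661 (19%), 1 was lower.

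Between cultures, no member passed the test. Of the 30 members tested, 0 were called higher and 0 lower in 3D than in 2D (limma with line as a block, adjusted p under 0.05 over 14113 genes), against 1.97% of all genes called higher and 4.12% lower (6.09% in all). With each probe set fitted on its own, again 0 were called, against 2.66% of all probe sets higher and 4.44% lower. At an unadjusted p under 0.05 there were 2 of 30 members, against 25% of all genes. No member moved the same way in 8 of 8 lines, against 7.52% of all genes. No member passed in any of the alternative settings run either, where the lowest adjusted p was 0.053 in a fit of gene values.

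The median 3D minus 2D difference was 0.12 over members and -0.01 over all tested genes. Above 0 were 22 of 30 members, although 18 of the 30 changed sign in at least 1 alternative setting. The share of all tested genes above 0 was not counted, but with a median of -0.01 it was no majority. The differences of members varied from line to line. The median SD of the difference over the 8 lines was 0.70 for members and 0.31 for all tested genes. COL8A1 had the largest positive mean, 0.82 ± 0.81 (log2, SD over 8 lines), higher in 7 of 8 lines (unadjusted p = 0.0104, adjusted p = 0.0875). Its differences ran from -0.22 in H460 to 2.10 in H661. FBLN1 averaged -0.37 ± 0.42 and was lower in 7 of 8 lines (unadjusted p = 0.0187, adjusted p = 0.12). SPP1 had the largest negative mean, -0.83 ± 1.87 (adjusted p = 0.381), and it rested on H1437 and H661.

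Probe sets of 18S ribosomal RNA on the array were lower in 3D in 8 of 8 lines, with differences from -0.08 in H1437 to -3.45 in H23. With their mean as a covariate, 0 genes were called in either direction (limma, 1368 at an unadjusted p under 0.05). Because 18S was lower in 3D in every line, that fit cannot fully tell 18S and culture apart.

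**Figure D3:**
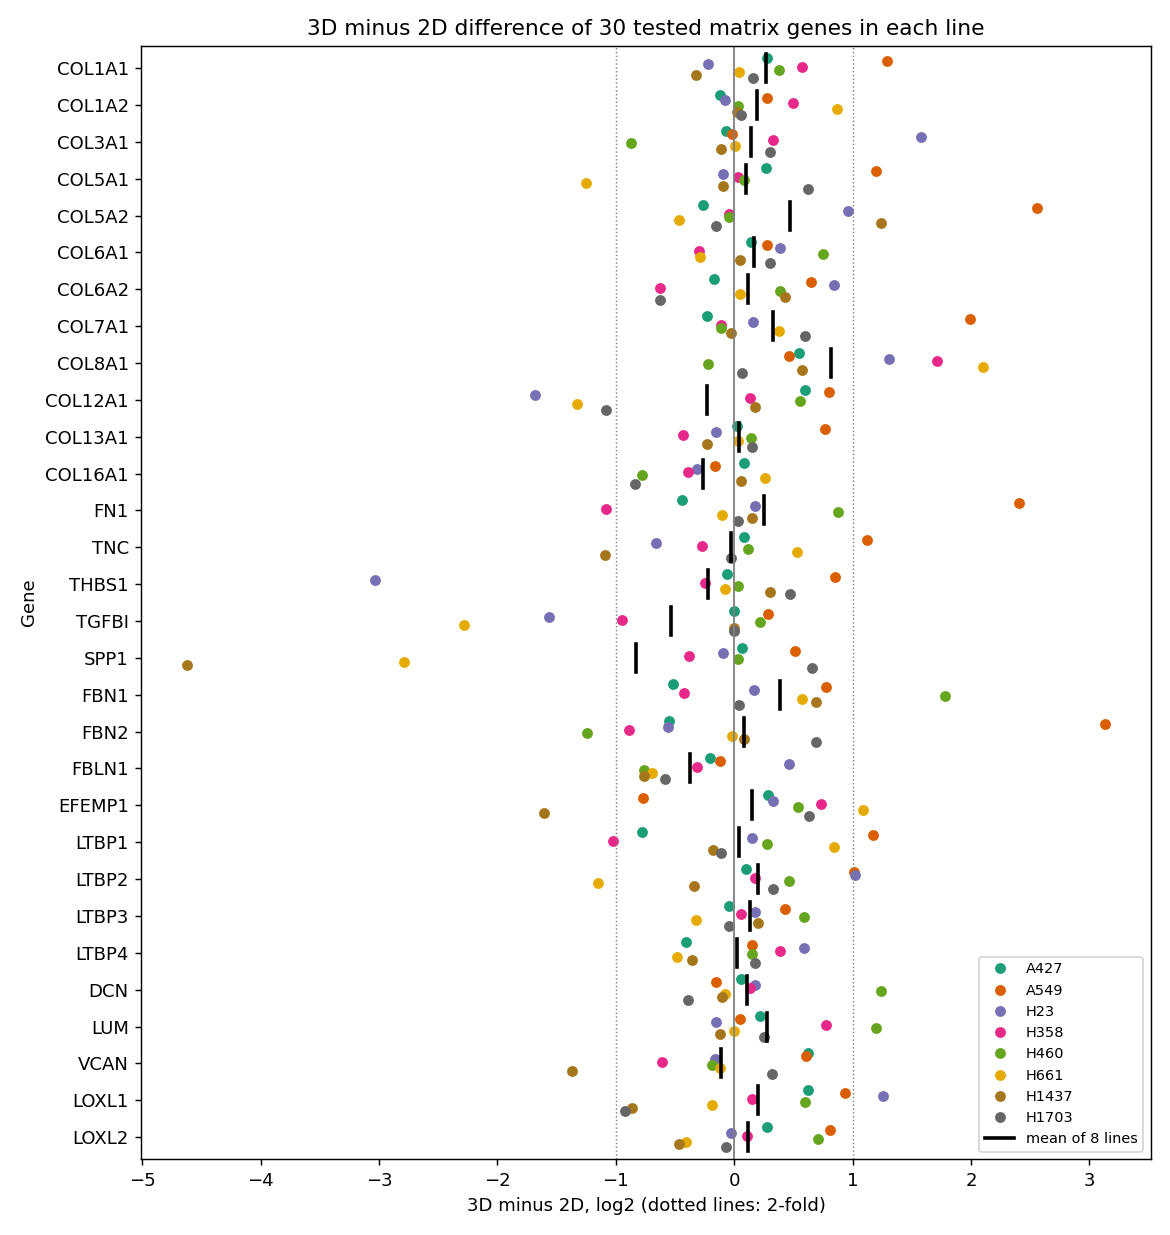
3D minus 2D difference (log2) of the 30 tested members in each of the 8 lines (coloured points), with the mean over lines (black bar) and dotted lines at 2-fold. The points of A549 lie to the right of 1 for 9 genes, whereas the means lie between -0.83 for SPP1 and 0.82 for COL8A1.

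Within a line each culture had 1 array, so the following differences carry no test and are given beside the same count over all tested genes. A549 stood out in the count of members higher in 3D: 9 of 30 by at least 2-fold (30%), against 3.98% of all tested genes. None was lower by 2-fold (1.03% of all genes), and 25 of 30 were above 0. The median difference in A549 was 0.71 over members and -0.02 over all genes, so no majority of all genes was above 0. FBN2 in A549 stood at 5.84 in 3D and 2.71 in 2D, a difference of 3.13. COL5A2 stood at 0.07 in 3D and -2.49 in 2D, a difference of 2.56. FN1 stood at 4.51 in 3D and 2.10 in 2D, a difference of 2.41. All 5 of its probe sets that are not dim were higher in 3D, by 1.04 to 2.89. COL7A1 stood at 2.81 in 3D and 0.82 in 2D, a difference of 1.99. The other 5 were COL1A1 (1.34 in 3D, 0.05 in 2D), COL5A1 (2.01 and 0.80), TNC (3.81 and 2.68), LTBP1 (0.96 and -0.21) and LTBP2 (2.75 and 1.74). Among single probe sets that are not dim, 21 of 70 of the members' were higher by 2-fold (30%), against 3.63% of all, and 1 was lower, against 2.76%, a count made after the gene values were seen. The 18S probe sets differed by -0.98 in A549, and their part in this count was not tested.

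H23 had 4 members higher (2.56% of all genes) and 3 lower (2.08%). Higher were COL3A1 (2.12 in 3D, 0.54 in 2D), COL8A1 (-1.0 and -2.30), LTBP2 (1.97 and 0.95) and LOXL1 (2.02 and 0.76). Lower were THBS1, at -2.82 in 3D and 0.21 in 2D, COL12A1, at 0.18 and 1.86, and TGFBI, at -6.53 and -4.97. All 4 THBS1 probe sets that are not dim were lower, with differences from -1.71 to -3.76. This line also had the largest 18S difference.

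H358 had COL8A1 higher (6.91 in 3D, 5.20 in 2D), and FN1 (1.53 and 2.61) and LTBP1 (-0.59 and 0.43) lower, that is 1 of 30 (3.76% of all genes) and 2 of 30 (2.78%). FN1 thus differed in opposite directions in H358 and A549, which was not tested. H460 had FBN1 (0.78 in 3D, -0.99 in 2D), DCN (1.43 and 0.20) and LUM (4.97 and 3.78) higher and FBN2 (2.94 and 4.18) lower, against 1.96% and 1.86% of all genes. FBN2 was therefore lower in H460, whereas it had the widest difference of any member in A549.

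H661 had 2 members higher (2.58%) and 5 lower (4.88%). COL8A1 stood at 5.04 in 3D and 2.94 in 2D, and EFEMP1 at -3.87 and -4.96. SPP1 was lower, at -3.02 in 3D and -0.23 in 2D, as was TGFBI, at -6.29 and -4.01. COL12A1 (0.25 in 3D, 1.58 in 2D), COL5A1 (2.00 and 3.24) and LTBP2 (-0.23 and 0.92) were the others. The collagens highest in this line, COL1A2, COL3A1 and COL11A1, differed by less than 2-fold between its cultures as gene values. For COL1A2 that value is 1 probe set, and its 2 dim probe sets were higher in 3D by more than 2-fold, at 11.42 in 3D and 10.07 in 2D and at 8.21 and 6.12.

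H1437 had COL5A2 higher (-4.81 in 3D, -6.05 in 2D) and 4 members lower, against 2.08% and 1.74% of all genes. SPP1 showed the widest difference of any member in any line, -4.62, at 0.20 in 3D and 4.82 in 2D. EFEMP1 (-1.30 in 3D, 0.30 in 2D), VCAN (0.22 and 1.59) and TNC (0.79 and 1.88) were also lower. The 18S probe sets differed by -0.08 in this line. H1703 had COL12A1 lower (-0.01 in 3D, 1.07 in 2D) and none higher, against 0.992% and 1.25%. A427 had none in either direction, against 0.609% higher and 0.475% lower.

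**Figure D4:**
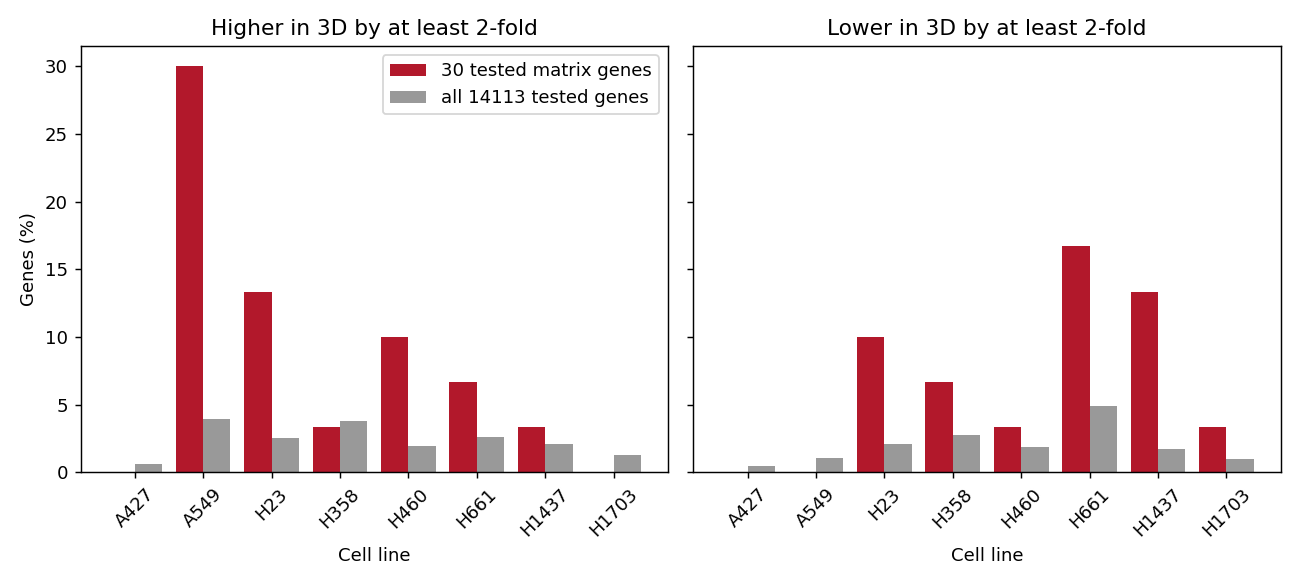
Share of the 30 tested members (red) and of all 14113 tested genes (grey) that were higher (left) or lower (right) in 3D by at least 2-fold in each line, in percent. On the left A549 reaches 30% of members against 3.98% of all genes, and A427 has no red bar on either side.

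Enzymes that process collagen inside and outside the cell were followed as a second list, and here single genes did pass. Of 23 tested, 3 were higher in 3D (1.97% of all genes) and 2 lower (4.12%), and the median difference was 0.01. P4HA1, a catalytic subunit of the prolyl 4-hydroxylase that stabilises the collagen triple helix, was higher by 1.11 ± 0.72 (SD, 8 of 8 lines, limma adjusted p = 0.0248). Its differences ran from 0.16 in A427 to 2.29 in H1703. P4HA2, its paralogue, was higher by 0.66 ± 0.38 (8 of 8 lines, adjusted p = 0.0228), from 0.06 in A427 to 1.20 in H460. PLOD1, a lysyl hydroxylase, was higher by 0.53 ± 0.41 (7 of 8 lines, adjusted p = 0.0464). SERPINH1, the collagen chaperone HSP47, was lower in 8 of 8 lines (-0.44 ± 0.18, adjusted p = 0.0195), with differences from -0.09 in H23 to -0.64 in H358. COLGALT1, which adds galactose to hydroxylysine, was lower in 8 of 8 lines (-0.45 ± 0.30, adjusted p = 0.037). The 3 called hydroxylase genes and the chaperone thus differed in opposite directions. The list's other hydroxylases did not pass, and ran from 0.53 for P4HA3 to -0.46 for P3H2. With the 18S covariate the 5 called genes kept their signs and none passed, P4HA1 at 0.98 and SERPINH1 at -0.55. Alternatives passed were 9 of 16 (P4HA1), 10 of 17 (P4HA2), 6 of 17 (PLOD1), 11 of 16 (SERPINH1) and 8 of 16 (COLGALT1). P4HA1 also missed the threshold with all its probe sets averaged (0.51, adjusted p = 0.0562), and P4HA2 when taken from its probe set of highest mean (0.04, adjusted p = 0.727). None of the 5 passed without H358, H460 or H1703, and only SERPINH1 did without H23. Across those 4 fits the 5 adjusted p-values ran from 0.0539 (P4HA1 without H1703) to 0.105 (PLOD1 without H460), apart from that of SERPINH1 without H23.

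Set against the same 1.97% higher and 4.12% lower, 1 of 20 other interstitial matrix genes and 2 of 14 genes of the TGF-beta axis passed. Of the matrix genes, THBS3, a thrombospondin, was higher in 3D by 0.63 ± 0.51 (8 of 8 lines, adjusted p = 0.0461), and the median was 0.21. With the 18S covariate its difference was 0.12 and did not pass. Of 17 matrix receptors tested, integrins among them, 0 passed in either direction. Of the TGF-beta axis, TGFB1, a main ligand, was lower in 8 of 8 lines (-0.43 ± 0.32, adjusted p = 0.0442) and SKIL, a SMAD repressor, in 6 of 8 (-0.45 ± 0.33, adjusted p = 0.0429). THBS3, TGFB1 and SKIL missed the threshold in most alternatives, passing in 6, 7 and 6 of 17, the fit without H1703 among those they missed. Of 8 fibroblast, 7 epithelial, 6 mesenchymal-state, 3 endothelial and 4 leukocyte genes tested, 0 passed in either direction.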

How the data were processed

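RNA of 8 lung cancer lines in 3D and 2D was hybridised to 16 arrays, per the labels. The deposited table holds log2 values, 1 for each probe set and array. That they are ratios to a reference per probe set was read from the values; background correction, normalisation and software: not given in the sources used here. The number of arrays limits precision, and 1 array stands for each line and culture.

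Gene names came from the platform annotation (41097 of 54675 probe sets name 1 gene, 1801 several, 11777 none). A median equal to the reference was judged within 0.001 on the log2 scale. R 4.3.3 and limma 3.58.1 (lmFit, eBayes with a variance trend) fitted line and culture over all genes. The 3D against 2D test used the 14113 genes with a probe set that is not dim, and the line test all 19775, both adjusted by Benjamini-Hochberg. Pairing comes from the labels: the line is the block. Every member is named. For each line the up to 4 members most above the other lines are given in both arrays, and every listed gene called between cultures is named. In simulated data at 14113 genes, the 3D against 2D test recovered 66% of genes changed 1.5-fold and 88% of those changed 2-fold. False calls were 5.52% of calls. These rates are over all genes and may not hold for members. The median SD of the difference over lines was 0.70 for members and 0.31 for all tested genes. Alternatives varied gene values, normalisation, the dim filter, the variance trend, an 18S covariate, the block and the lines included. Members and lists were chosen with earlier results of these data known.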

Additional observations from a re-analysis of the deposited data

Results flagged for a closer look

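A line was looked at again where its gap to the nearest other line took up more than Dixon's share of the range over 8 lines, for the mean level of a line or its 3D minus 2D difference. This held for 7 of 37 members in the line means and 4 of 30 in the differences. For normally distributed values, chance flags about 1 in 20 under this rule. The share of all genes flagged was not counted, so no excess among members can be read from these counts.

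For line means, H661 stood alone with COL11A1 at 10.74, COL1A2 at 10.82, LTBP1 at 2.42 and THBS2 at -0.15. MGP stood alone in H1437 at 1.70, BGN in H23 at 1.32 and DCN in H460 at 0.81. The THBS2 level lay below its reference even in H661.

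For 3D minus 2D differences, A549 stood alone with FBN2 (3.13) and COL7A1 (1.99), H460 with DCN (1.24) and H23 with THBS1 (-3.03). Each of these rests on 1 array a culture.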

How the results depend on the processing

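No member was called between cultures in any alternative run. The 8 list genes called between cultures kept their sign in every alternative. Of the 30 members, none of them called, 18 changed sign in at least 1. The list genes were picked for passing the main fit and the members were not, so these counts do not compare how stable the sets are. THBS1 gave 0.31 without probe sets ending in s_at or x_at and 0.86 with the 18S covariate, against -0.22, and COL12A1 0.43 with that covariate, against -0.23. The count over all genes (278 higher, 582 lower) moved far more: 109 and 265 with no dim filter, 372 lower when probe sets whose names end in s_at or x_at were dropped, 0 and 0 with the 18S covariate, and 0 and 1 with no replicate block (line). Leaving out 1 line at a time gave 4 to 299 higher and 13 to 681 lower. H1703 weighed most (4 and 13 without it), then H460 (25 and 51), H358 (51 and 73), H23 (66 and 137), H661 (111 and 182) and A549 (115 and 238). For members against the other lines, fewer were measured when probe sets whose names end in s_at or x_at were dropped. Dropping those probe sets gave 0 higher and 10 lower in A427, 12 and 5 in A549, 3 higher in H23 and 7 higher in H358. It also gave 7 higher in H460, 3 lower in H661, 3 and 8 in H1437 and 11 lower in H1703. How many members were still measured is not given here, so these counts cannot be set against those of the main fit. The probe set of highest mean gave 7 lower in H358, 11 in H460 and 10 in H1437. Centring arrays gave 7 lower in H358, and genes that are not dim alone gave 7 lower in H358 and 5 in A549. For all of these line settings the share of all genes called is not given, so no excess or lack among members can be read. Within lines at 1.5-fold, members higher and lower numbered 17 and 1 in A549, 8 and 4 in H460, 5 and 4 in H1703, 3 and 6 in H358 and 3 and 1 in A427, with 7 higher in H23, 4 in H661 and 2 in H1437. The share of all genes past 1.5-fold was not counted, so these counts show only how the member counts move with the threshold. The probe set of highest mean gave 1 lower in A549, 2 and 1 in H358 and 6 higher in H460. Except where the construction shows it, the cause was not tested.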
